A study of Mus musculus with 3 samples.

Results

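The small leucine-rich proteoglycans (SLRPs) described here are the 8 genes Dcn (decorin), Lum (lumican), Bgn (biglycan), Fmod (fibromodulin), Ogn (osteoglycin), Prelp, Podn (podocan) and Aspn (asporin), chosen by symbol from the 32293 features of the count matrices. SLRPs are secreted proteins with a core of leucine-rich repeats, and most carry chondroitin, dermatan or keratan sulfate chains. They bind collagen fibrils and set fibril width and spacing, and several of them bind growth factors such as TGF-beta. In the thymus, collagen-rich capsule, septa and vessel walls are built mainly by fibroblasts (FB) and mural cells, the latter being vascular smooth muscle cells and pericytes. The 8 genes belong to several branches of the family. Dcn, Bgn and Aspn are class I members, Lum, Fmod and Prelp class II members, Ogn is a class III member and Podn a class V member.

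The measurements were single-cell RNA sequencing counts of thymic cells depleted of CD45+ blood cells, from untreated C57BL/6 mice of 20 months, with 10 to 15 pooled thymi named for each library in the protocol. A Foxn1 lineage trace female library, a Foxn1 lineage trace male library and a wild-type male library were available, each the sole library of its group (n = 1), so sex, genotype and library cannot be told apart between them. They are called Foxn1Lin female, Foxn1Lin male and wild type male, and values are given in that order throughout. In the lineage trace, Cre under Foxn1 control, a gene of thymic epithelial cells (TEC), switches on a red reporter at ROSA26 that a cell and its progeny keep. The labels of the wild-type library differ, since its cell type reads CD45-PECAM1+ and its name CD45-. By the marker rules given below, 16.3% of its filtered barcodes were called endothelial, against 22.2% and 23.8% in the Foxn1Lin libraries. Fibroblasts were 32.5% of them, so the library was not limited to PECAM1+ cells. The protocol text, shared by all 3 libraries, names female mice.

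The chromosomes hold several of these genes as neighbours. In GRCm38 coordinates, Dcn (chr10:97479609-97518143) and Lum (chr10:97565128-97572703) were 46.98 kb apart on the plus strand with no protein-coding gene between them. Aspn (chr13:49544443-49567565) and Ogn (chr13:49608046-49624501) were 40.48 kb apart on the plus strand, with Omd, another SLRP gene, between them. Prelp (chr1:133910304-133921414, minus strand) and Fmod (chr1:134037254-134048277, plus strand) were 115.8 kb apart. Bgn (chrX:73483602-73495933, plus strand) and Podn (chr4:108014791-108096445, minus strand) had no other SLRP gene beside them. Podn overlaps Scp2 on the same strand, so its counts are uncertain. Aspn and Ogn overlap Cenpp, and Prelp overlaps Gm15851, on the opposite strand.

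The start regions of 3 genes are shown because their levels picked out different stromal cells, Aspn mural cells, Ogn some of the fibroblasts and Fmod the mesothelium. RefSeq windows (GRCm38.p6) matched 6 of the 8 genes. The 120 bases before the start, on the plus strand, lie at chr13:49544323-49544442 for Aspn, chr13:49607895-49608014 for Ogn and chr1:134037134-134037253 for Fmod. Capitals mark a match to GGAATG, the core letters of the TEAD motif.
Aspn: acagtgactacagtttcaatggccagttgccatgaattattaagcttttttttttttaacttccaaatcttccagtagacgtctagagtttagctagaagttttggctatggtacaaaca
Ogn: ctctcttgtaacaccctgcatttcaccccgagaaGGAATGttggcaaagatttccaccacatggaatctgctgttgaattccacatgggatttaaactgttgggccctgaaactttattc
Fmod: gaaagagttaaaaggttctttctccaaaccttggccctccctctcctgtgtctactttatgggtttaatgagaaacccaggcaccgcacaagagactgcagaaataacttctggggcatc
GGAATG, the TATA box letters TATAAA and the E-box letters CAGCTG were searched on both strands. The Ogn window held GGAATG 86 bases before the RefSeq start, and the windows shown for Aspn and Fmod held none of the 3. Of 32851 windows of 120 bases, 5.82% held GGAATG, 6.34% held TATAAA and 6.76% held CAGCTG.

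Cells were sorted into classes by marker UMIs, unique molecule counts that include no SLRP gene. FB had at least 2 UMIs of Pdgfra, mural cells at least 5 of Rgs5 and Acta2 together, endothelial cells (EC) at least 2 of Pecam1, mesothelial cells (MEC) at least 2 of Upk3b and TEC at least 2 of Epcam. Barcodes in more than 1 class were left out. FB were 1852, 864 and 1707 barcodes, mural cells 426, 449 and 352, EC 1879, 818 and 857, and TEC 464, 426 and 867. MEC were 338, 0 and 36, so the Foxn1Lin male library holds no mesothelial value. The matrices held 8616, 3583 and 5478 called barcodes, of which 8478, 3434 and 5256 passed the filter on damaged cells, and median UMIs per barcode were 4675, 7431 and 7947. Between libraries, 3 to 14 barcode sequences were shared.

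The class names were checked with markers that the rule did not use, summed as UMIs per 1000000 UMIs of the class (CPM). The 7 FB markers were at 3858 to 5153 CPM in FB, at 2850 to 3275 in MEC and at 730 to 976 in mural cells. Mural markers were at 8925 to 10018 CPM in mural cells and at most 382 in FB. EC markers were at 6330 to 7138 CPM in EC, MEC markers at 2953 and 3238 in MEC, and TEC markers at 6224 to 7779 in TEC. Parathyroid markers were at 2738 to 5162 CPM within TEC, so this class also held transcripts of such cells. Fat markers were at 5.90 CPM or lower in these 5 classes.

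Free RNA differed between libraries. UMIs outside called barcodes were 26.5%, 12.9% and 9.46% of all UMIs. The 7 FB markers summed to 337 CPM in EC of Foxn1Lin female and to 17.3 and 33.2 in EC of the males. In empty droplets, Dcn stood at 1925, 2701 and 2554 CPM, Lum at 287, 237 and 298, Bgn at 377, 426 and 653, and Ogn at 173, 38.0 and 42.9. Values in EC are given below as those of a class that should lack FB transcripts. The part of free RNA in any level was not tested.

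FB held the largest share of UMIs of Dcn, Lum, Bgn, Ogn, Prelp and Podn in each library. Among called barcodes, FB took 57.3%, 78.5% and 78.3% of Dcn UMIs and 67.3%, 82.3% and 84.2% of Lum UMIs. Aspn was split between FB and mural cells, with FB ahead in Foxn1Lin female and wild type male and mural cells ahead in Foxn1Lin male. FB held 30.5%, 22.4% and 40.9% of Aspn UMIs, against 26.5%, 61.6% and 37.3% in mural cells. FB held 3.45%, 4.91% and 7.94% of Fmod UMIs, and MEC held 74.8% of them in Foxn1Lin female, where mesothelial barcodes were most numerous.

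**Figure D1:**
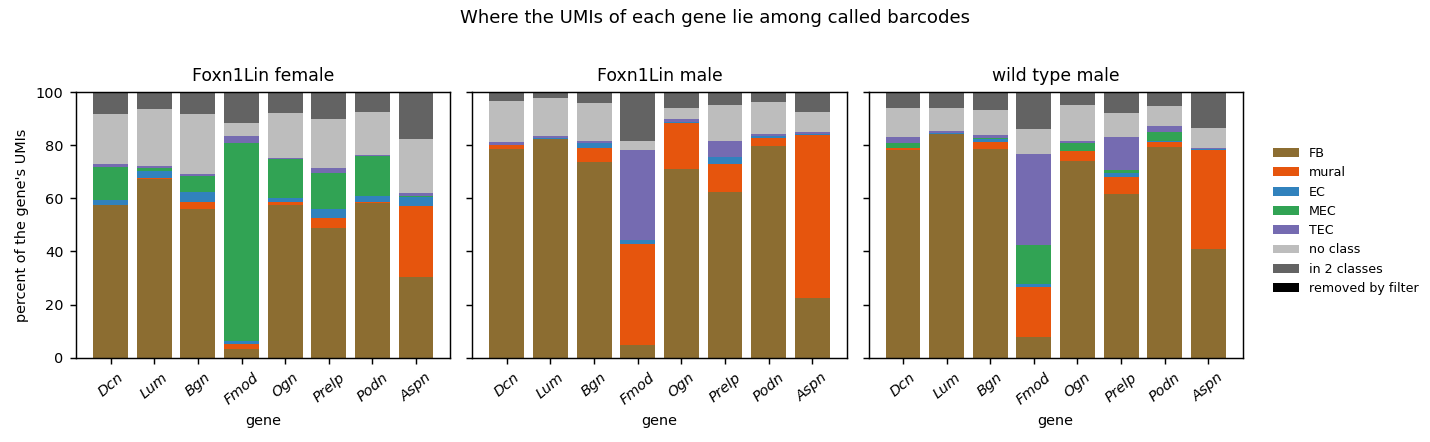
Stacked bars give the percent of each gene's UMIs (vertical axis, 0 to 100) that lay in each class of called barcodes, in 1 panel per library, with genes on the horizontal axis. Bars for Dcn, Lum, Bgn, Ogn, Prelp and Podn are largest in FB, Aspn is split between FB and mural cells, and Fmod is mostly MEC in Foxn1Lin female and spread over mural cells and TEC in Foxn1Lin male.

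Dcn, a class I SLRP that decorates collagen I fibrils and binds TGF-beta, was at 9145, 12952 and 9958 CPM in FB. MEC were at 7540 CPM in Foxn1Lin female and 8060 in wild type male. Mural cells followed at 359, 798 and 408 CPM, EC at 410, 50.5 and 66.4, and TEC at 305, 239 and 235. FB were above MEC in both libraries that hold MEC, by less than the error of the fit, and FB were above mural cells, EC and TEC in all 3. Mural cells, EC and TEC had no fixed order, since EC were above mural cells in Foxn1Lin female and below them in the males. After each barcode was thinned to 2000 UMIs, Dcn was detected in 99.5%, 99.5% and 99.5% of FB and in 13.5% to 27.3% of mural cells. The share in EC was 28.5% in Foxn1Lin female and 6.56% and 8.21% in the males. The unthinned shares in FB were 99.6%, 100% and 99.8%.

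Within mural cells, a few barcodes held much of the Dcn. The 10 highest of 426, 449 and 352 mural barcodes held 59.8%, 55.0% and 58.8% of its UMIs. For Aspn the same share was 10.0%, 11.01% and 14.0%, and for Prelp it was 17.5%, 15.3% and 14.6%. The share was 48.7%, 47.3% and 58.3% for Ogn, on 195, 237 and 120 UMIs, where Dcn had 692, 2189 and 983. It was 53.7% to 76.2% for Lum, 30.8% to 59.3% for Fmod and at least 82.6% for Podn. These 3 genes had only 4 to 107 mural UMIs per library. With so few UMIs, this share cannot tell concentration from low counts. Fibroblast markers were present in mural barcodes at 730 to 976 CPM, and their part in the mural Dcn level was not tested.

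Lum, a class II SLRP with keratan sulfate chains, was at 758, 871 and 783 CPM in FB. FB stood above each other class in each library. Mural cells were at 34.8, 7.65 and 11.6 CPM, EC at 44.0, 3.94 and 7.90, and TEC at 18.9, 6.99 and 3.63. MEC were at 46.4 CPM in Foxn1Lin female, and in wild type male only 1 UMI was counted in 36 barcodes (2.20 CPM, 95% exact Poisson interval 0.0557 to 12.3). The counting intervals of mural cells and EC overlapped in all 3 libraries. Lum was detected in 68.3%, 63.5% and 65.0% of thinned FB and in 7.71%, 0.757% and 1.84% of thinned EC.

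Bgn, a class I SLRP that binds collagen and, once released, Toll-like receptors, was at 1218, 1705 and 2275 CPM in FB. Mural cells and MEC shared the next place, mural cells at 431, 382 and 495 CPM and MEC at 493 and 409, with MEC above in Foxn1Lin female and below in wild type male. EC were lower at 127, 56.0 and 71.0 CPM, and TEC lowest at 30.3, 16.6 and 24.9. Bgn was spread widely among mural cells, in 51.8%, 42.2% and 56.3% of thinned barcodes, against 13.2%, 7.44% and 10.8% of EC.

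Prelp, a class II SLRP that binds heparan sulfate and anchors basement membranes to collagen, was shared by FB, MEC and mural cells. It was at 286, 253 and 339 CPM in FB, at 291 and 244 in MEC and at 160, 134 and 217 in mural cells. TEC were at 28.7, 30.9 and 57.3 CPM and EC at 33.2, 12.7 and 16.3. By counting intervals, FB were above MEC in wild type male and TEC above EC in both males. In Foxn1Lin female the intervals of FB and MEC overlapped, as did those of TEC and EC.

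Podn, a class V SLRP of connective tissue and vessel walls, was at 59.0, 70.4 and 62.1 CPM in FB and at 56.7 and 83.6 in MEC. It was at 2.08, 8.38 and 10.4 CPM in mural cells, 3.85, 0.526 and 0.67 in EC and 0.922, 0.932 and 1.54 in TEC. Those last 3 classes rest on 4 to 36 UMIs each.

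Ogn, a class III SLRP that binds collagen fibrils, had the widest spread between libraries in FB. FB were at 751 CPM in Foxn1Lin female and at 113 and 161 in the males. MEC were at 709 CPM in Foxn1Lin female and 216 in wild type male. Mural cells were at 101, 86.4 and 49.8 CPM, and EC were at 34.2, 0.789 and 0.937. TEC were at 11.2, 2.49 and 1.37 CPM. With 1 library per group the female value has no replicate check. The FB of each library also differed in their subsets, which are given below.

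Aspn, a class I SLRP that lacks the usual glycosaminoglycan attachment site and binds TGF-beta, was highest in mural cells at 430, 361 and 342 CPM. FB were at 66.8, 41.6 and 59.4 CPM, below mural cells in every library. EC were at 11.6, 0.394 and 0.67 CPM and TEC at 4.30, 2.02 and 0.879. In MEC, 19 UMIs gave 4.98 CPM in Foxn1Lin female, and 0 UMIs in wild type male allow up to 6.60 CPM at 3 counts. Aspn was detected in 52.0%, 49.8% and 46.4% of thinned mural barcodes and in 1.52%, 0% and 0% of EC, where 0 of 793 and 0 of 816 barcodes allow up to 0.378% and 0.368%. These limits hold for thinned detection only, and the full counts held 3 and 5 Aspn UMIs in EC of the males.

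Fmod, a class II SLRP with keratan sulfate chains, was highest in MEC at 302 and 183 CPM. Mural cells followed at 14.0, 30.98 and 44.4 CPM, then TEC at 5.99, 11.8 and 10.7, FB at 3.71, 1.27 and 2.96, and EC at 1.60, 0.394 and 0.803. This order of classes was the same in all 3 libraries, apart from the missing mesothelial value of Foxn1Lin male. Fmod was detected in 41.3% and 25% of thinned MEC and in 0.465% to 0.549% of thinned FB. In FB it was below the empty droplets of the same library, which held 18.6, 5.99 and 8.86 CPM.

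**Figure D2:**
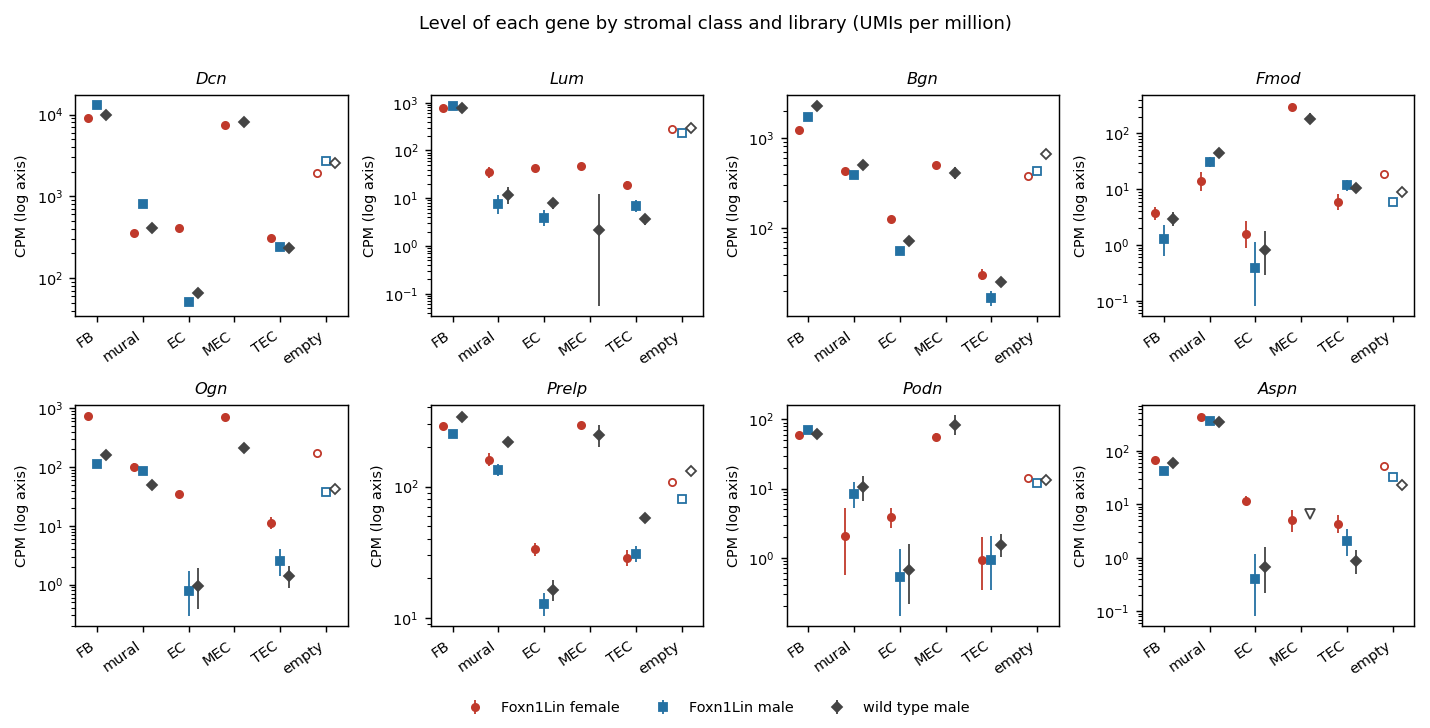
Each panel plots 1 gene as CPM on a log axis for the 5 classes and for empty droplets (open symbols), with symbols by library and bars giving 95% exact Poisson intervals that cover counting error only. The open triangle for Aspn in MEC of wild type male marks the level that 0 UMIs allow. Dcn, Lum and Bgn peak in FB, Aspn in mural cells and Fmod in MEC, while Ogn in FB is higher in Foxn1Lin female (751 CPM) than in the males (113 and 161).

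To compare classes, UMIs were summed per library and class and fitted with edgeR's quasi-likelihood test, with the library as a block, over 17595 genes. P-values were adjusted by the Benjamini-Hochberg method and describe the spread over 3 libraries of different sex and genotype. Nothing states that these were repeat preparations of 1 group. A gene was called at an adjusted p under 0.05.

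FB against mural cells gave calls in both directions. Of the 8 genes, 4 were higher in FB, where 14.1% of all genes were, and 2 were lower, where 14.3% of all genes were. Lum (log2 fold change 6.01, SE 0.67, edgeR adjusted p = 8.14e-05), Dcn (4.35, SE 0.68), Podn (3.16, SE 0.55) and Bgn (2.02, SE 0.29) were higher in FB. Fmod (-3.46, SE 0.54, edgeR adjusted p = 0.00074) and Aspn (-2.78, SE 0.59, edgeR adjusted p = 0.00492) were lower. Prelp (0.81, SE 0.30, edgeR adjusted p = 0.0705) and Ogn (1.47, SE 0.65, edgeR adjusted p = 0.117) were above mural cells in 3 of 3 libraries without passing the test. Without Foxn1Lin female, the library with most free RNA, both passed, at 0.73 and 0.99. Prelp also passed with the highest doublet scores removed (0.86) and Ogn after thinning (2.10). For the fits after thinning, classes were called again on the thinned counts. Without wild type male, Aspn had an adjusted p of 0.0578.

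Against EC, 7 of the 8 genes were higher in FB, where 19.9% of all genes were, and 0 were lower, where 19.7% of all genes were. The log2 fold changes ran from 3.81 for Prelp to 6.16 for Lum. Fmod, at 109 UMIs in FB and 24 in EC, was at 1.44 (SE 0.68, edgeR adjusted p = 0.116), and passed without Foxn1Lin female (1.73, edgeR adjusted p = 0.0287). Against TEC, the same 7 genes were higher (24.9% of all genes), from 3.25 for Prelp to 7.23 for Lum. Fmod was lower in FB than in TEC (30.1% of all genes), at -1.49 (SE 0.52, edgeR adjusted p = 0.0301). That call was lost without Foxn1Lin male (-0.97), without wild type male (-1.28) and after thinning to 2000 UMIs (-0.76).

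FB and MEC differed in 4 of the 8 genes, over the 2 libraries that hold MEC. Lum (5.81, SE 0.83), Aspn (4.53, SE 1.04) and Bgn (2.20, SE 0.36) were higher in FB, where 11.7% of all genes were. Fmod was lower in FB (9.77% of all genes) by -6.38 (SE 0.59, edgeR adjusted p = 4.28e-05), the largest fitted difference of the 8 genes in this comparison. Within wild type male, Lum had the larger log2 ratio (8.47, on 1 mesothelial UMI, against -5.95 for Fmod). Dcn (0.58, SE 0.70), Prelp (0.37, SE 0.35), Podn (0.08, SE 0.55) and Ogn (-0.20, SE 0.71) did not pass. Wild type male holds 36 of the mesothelial barcodes, and without it only Fmod was called, with Lum at 5.17, Aspn at 3.99 and Bgn at 1.79.

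Mural cells against EC, which lie side by side in vessel walls, had 6 of the 8 genes higher (18.8% of all genes) and 0 lower (18.4%). Aspn (6.91, SE 0.75, edgeR adjusted p = 3.78e-05) and Fmod (4.90, SE 0.63) led, followed by Ogn (3.93), Prelp (3.004), Bgn (2.36) and Podn (1.98). Dcn was at 1.78 (SE 0.66, edgeR adjusted p = 0.0537) and Lum at 0.15 (SE 0.60). Dcn was called without Foxn1Lin female (3.25, edgeR adjusted p = 5.07e-05), with the highest doublet scores removed (2.16, edgeR adjusted p = 0.0182), with all genes kept (1.76, edgeR adjusted p = 0.0401) and by DESeq2 (1.81, adjusted p = 0.0131), and came to 0.23 after thinning. The 10 highest barcodes held 48.7%, 47.3% and 58.3% of mural Ogn UMIs. The 7 FB markers were at 730 to 976 CPM in mural cells and at 17.3 to 337 in EC, and their part in these calls was not tested. The Podn call rests on 52 mural and 45 endothelial UMIs and was lost without either male library (1.41 and 1.29) and after thinning (1.64). The Ogn call was lost without wild type male (3.65, edgeR adjusted p = 0.0565) and with no library term (2.67, edgeR adjusted p = 0.133).

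**Figure D3:**
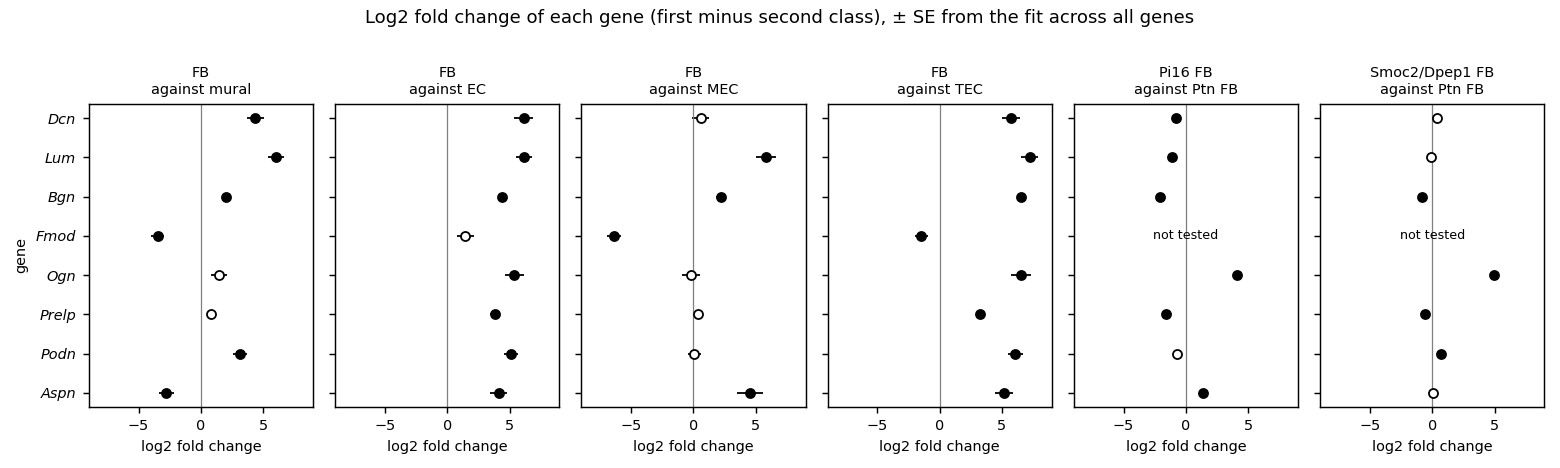
Points give the log2 fold change of each gene between the classes named above each panel (first minus second), bars the SE of the fit, and filled points an edgeR adjusted p under 0.05. Lum and Bgn lie to the right in all 4 comparisons of FB with another class, Fmod lies left of 0 against mural cells, MEC and TEC, and Ogn lies farthest right in both panels of a fibroblast subset against Ptn FB (4.09 and 4.97).

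FB were split by Pi16 (at least 2 UMIs), a gene of adventitial and capsular fibroblasts, by Smoc2 and Dpep1 together (at least 3) and by Ptn (at least 3). A barcode in more than 1 subset was left out, which removed 838, 305 and 653 FB (45.2%, 35.3% and 38.3%). Of the 717, 81 and 171 FB that met the Pi16 rule, 661, 68 and 149 also met the Smoc2/Dpep1 rule and were left out. Pi16 FB were then 48, 6 and 12 barcodes, Smoc2/Dpep1 FB 575, 100 and 212 and Ptn FB 242, 407 and 681. Pi16 FB are thus the minority of Pi16 barcodes that met no other subset rule. The 6 Pi16 barcodes of Foxn1Lin male were too few for the fit. Smoc2/Dpep1 FB outnumbered Ptn FB in Foxn1Lin female, and Ptn FB outnumbered them in both males.

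Ogn had the largest log2 fold changes against Ptn FB of the 7 genes tested. In Smoc2/Dpep1 FB it was at 841, 344 and 502 CPM and in Ptn FB at 34.1, 12.3 and 11.6, with no overlap. The log2 fold change was 4.97 (SE 0.24, edgeR adjusted p = 1.4e-07, higher in 3 of 3 libraries). Pi16 FB were at 576 and 206 CPM in the 2 libraries tested, above Ptn FB by 4.09 (SE 0.28, edgeR adjusted p = 1.81e-06). It was detected in 68.5%, 39.4% and 47.3% of thinned Smoc2/Dpep1 FB and in 7.08%, 2.22% and 2.23% of thinned Ptn FB. Within Smoc2/Dpep1 FB, Foxn1Lin female remained above the males, by a smaller ratio than over all FB.

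Bgn ran the other way. Ptn FB were at 2437, 1860 and 2579 CPM, Smoc2/Dpep1 FB at 1053, 1214 and 1790 and Pi16 FB at 436 and 800. Smoc2/Dpep1 FB were below Ptn FB in 3 of 3 libraries by -0.79 (SE 0.18, edgeR adjusted p = 0.0105), and Pi16 FB were below Ptn FB by -2.11 (SE 0.23, edgeR adjusted p = 8.17e-05). The former call was lost without either Foxn1Lin library (-0.57 without the female, -0.86 without the male). Prelp had the same order, at 394, 273 and 371 CPM in Ptn FB, 305, 163 and 239 in Smoc2/Dpep1 FB and 150 and 120 in Pi16 FB.

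In all, Smoc2/Dpep1 FB against Ptn FB gave 2 higher genes, where 6.28% of 11088 genes were, namely Ogn and Podn (0.68, SE 0.16), and 2 lower, where 6.3% were, namely Bgn and Prelp (-0.58, SE 0.17). The Prelp and Podn calls were lost without either male and after thinning. With no library term Bgn, Prelp and Podn were all lost (edgeR adjusted p = 0.215, 0.447 and 0.221), and only Ogn was called. Dcn (0.36, edgeR adjusted p = 0.180), Lum (-0.10) and Aspn (0.09) did not pass, and Fmod had too few counts to be tested.

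Pi16 FB against Ptn FB gave 2 higher genes, where 6.12% of all genes were, namely Ogn and Aspn (1.41, SE 0.29). It gave 4 lower genes, where 5.28% were, namely Bgn, Prelp (-1.58, SE 0.25), Lum (-1.11, SE 0.28) and Dcn (-0.82, SE 0.19). Pi16 FB against Smoc2/Dpep1 FB gave 1 higher gene (2.62% of all genes), Aspn (1.32, SE 0.29), and 4 lower (2.06%), which were Podn (-1.36, SE 0.34), Bgn (-1.33, SE 0.23), Dcn (-1.18, SE 0.19) and Prelp (-1.002, SE 0.25). In this comparison Ogn (-0.89, edgeR adjusted p = 0.0799) and Lum (-1.01, edgeR adjusted p = 0.0666) did not pass. These comparisons rest on 48 and 12 Pi16 barcodes. In the former, Lum was lost without either male (-1.10 and -0.68) and Aspn without Foxn1Lin female (1.08) and after thinning (0.70). Lum and Dcn were lost with class thresholds raised by 1 (-0.74 and -0.54), and Lum, Dcn and Aspn with no library term (edgeR adjusted p = 0.108, 0.0814 and 0.0889). In the latter, none of the 7 SLRP genes tested was called with no library term, where Dcn had an edgeR adjusted p of 0.0644 and Bgn of 0.103. With the library term, Dcn and Bgn were called without each library in turn, Podn and Prelp in none of these fits, and Aspn was lost without Foxn1Lin female (0.91) and without wild type male (1.49). Without Foxn1Lin female, Lum (-1.85, edgeR adjusted p = 0.00538) and Ogn (-1.37, edgeR adjusted p = 0.0443) were called as well. Both were also called with all genes kept, and Lum by DESeq2 and after thinning. Podn was lost by DESeq2 (adjusted p = 0.0631), and Podn and Aspn were lost after thinning (edgeR adjusted p = 0.273 and 0.0899).

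When every FB with at least 2 Pi16 UMIs was counted as Pi16 FB (717, 81 and 171 barcodes), an alternative chosen after seeing the data, Dcn against Ptn FB came to 0.0029 (edgeR adjusted p = 0.991), while Ogn (5.48), Bgn (-1.35), Prelp (-0.91), Lum (-0.43) and Aspn (1.10) were called in the same direction as before. In that fit 26.6% of all genes tested were called, against 11.4% in the fit above. Against Smoc2/Dpep1 FB only Bgn (-0.57) was then called, with 6.72% of all genes.

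**Figure D4:**
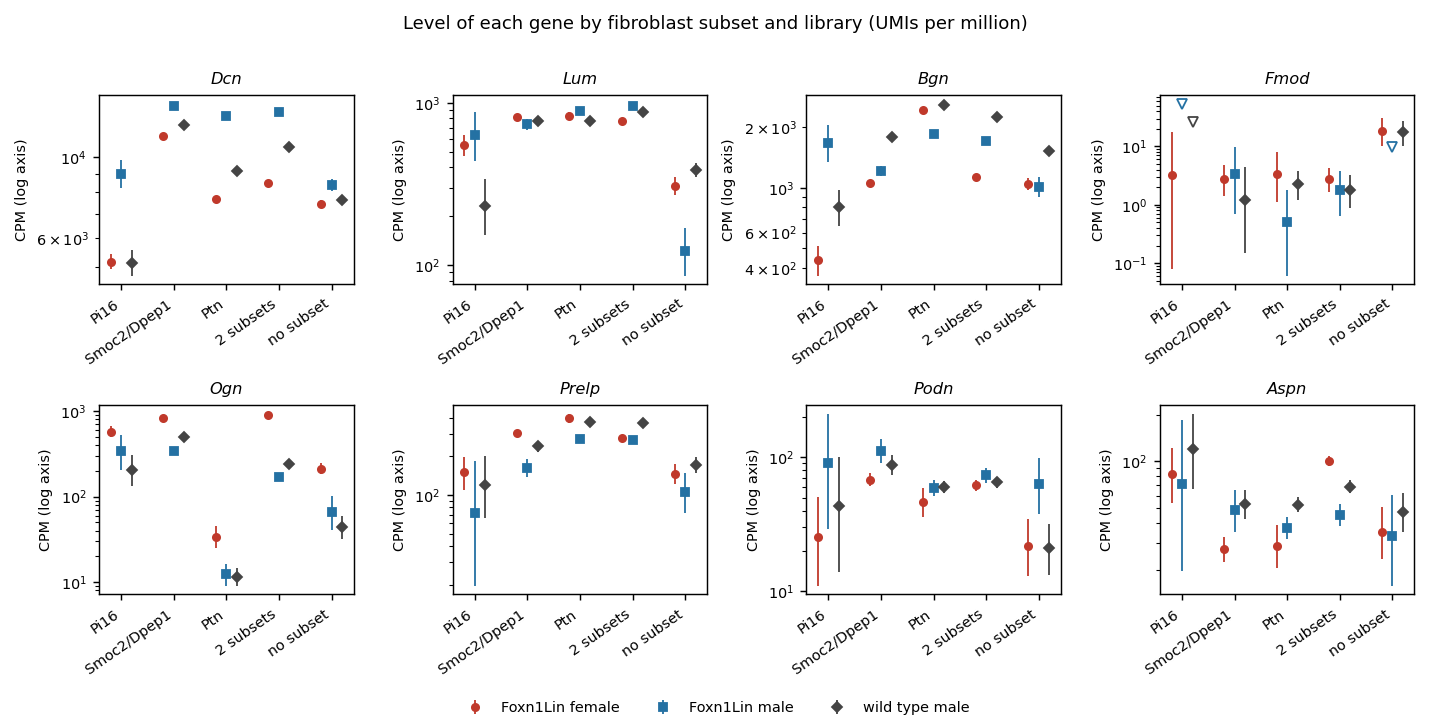
Each panel plots 1 gene as CPM on a log axis for the 3 fibroblast subsets, for FB in more than 1 subset and for FB in none, with symbols by library and bars giving 95% exact Poisson intervals. Open triangles mark the level that 0 UMIs allow. Ogn is high in Smoc2/Dpep1 FB (841, 344 and 502 CPM) and low in Ptn FB (34.1, 12.3 and 11.6), and Bgn is highest in Ptn FB.

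Mural barcodes were also divided by whether they held more Acta2, a smooth muscle actin, or more Rgs5, a pericyte gene. None of the 7 genes tested passed (edgeR, with 0.245% and 0.32% of 9383 genes called higher and lower), and 1 gene, Ogn, had an unadjusted p under 0.05. DESeq2 called Ogn alone. Ogn was at 120, 134 and 95.3 CPM in Acta2-leaning cells and at 75.4, 7.88 and 5.16 in Rgs5-leaning cells (2.69, SE 0.68, edgeR adjusted p = 0.138). The groups did not overlap, and the gap was wide in the males only. Without Foxn1Lin female, Ogn came to 4.17 (edgeR adjusted p = 2.04e-05) and Dcn to 2.02 (edgeR adjusted p = 6.45e-05). Podn, which could then be tested, came to 2.19 (edgeR adjusted p = 0.0314), on 19 and 22 against 4 and 3 UMIs. In these males the 10 highest mural barcodes held 55.0% and 58.8% of Dcn UMIs. Dcn was detected in 16.5% and 16.1% of their thinned Acta2-leaning cells and in 10.0% and 14.3% of Rgs5-leaning cells, with overlapping intervals. Aspn was at 379, 333 and 341 CPM in Acta2-leaning cells and at 504, 412 and 349 in Rgs5-leaning cells (-0.14, SE 0.16). Inmt and Gpx3, markers of Smoc2/Dpep1 FB, summed to 122, 438 and 336 CPM in Acta2-leaning cells and to 162, 277 and 180 in Rgs5-leaning cells. Postn and Mdk, of Ptn FB, summed to 57.6, 186 and 428 against 860, 235 and 422. The part of fibroblast transcripts in these levels was not tested.

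EC and TEC were compared with the empty droplets of their own library. In EC of Foxn1Lin male, Dcn, Lum, Ogn and Aspn were at 0.0187, 0.0167, 0.0207 and 0.0122 of the empty-droplet level, while Bgn and Prelp were at 0.132 and 0.158. In EC of wild type male the former 4 were at 0.0218 to 0.0298, and Bgn and Prelp at 0.109 and 0.125. Fmod was at 0.0659 and 0.0906 in EC of the males, on 3 and 6 UMIs, and Podn at 0.0439 and 0.0504, on 4 and 5. The wide intervals of Fmod and Podn overlapped that of Bgn. In Foxn1Lin female all 7 genes other than Fmod were at 0.153 to 0.336. In each of the 3 libraries the counting intervals of the Bgn and Prelp ratios lay above that of Dcn.

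In TEC of the males, Fmod stood above the other genes in the same measure, while in Foxn1Lin female its counting interval overlapped that of Prelp. It was at 0.322, 1.97 and 1.20 of the empty-droplet level, where Dcn was at 0.158, 0.0887 and 0.0921. Prelp was at 0.264, 0.383 and 0.438. Fmod was detected in 1.55%, 1.96% and 1.302% of thinned TEC, against 0.379%, 0.252% and 0% of thinned EC. Parathyroid markers were at 2738 to 5162 CPM in TEC, and their part in the Fmod level was not tested. The 10 highest TEC barcodes held 64.1%, 55.3% and 35.1% of Fmod UMIs, which were 39, 76 and 194 in all.

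In mural cells Aspn and Prelp were above the empty droplets in each library, Prelp at 1.47, 1.65 and 1.66 of their level. Dcn (0.187, 0.295 and 0.160) and Lum (0.121, 0.0323 and 0.0390) were below it in each library. Podn was at 0.147, 0.700 and 0.781, with intervals reaching 1 in the males. Bgn was at 1.14, 0.898 and 0.759. Ogn was at 0.586, 2.27 and 1.16, and Fmod at 0.753, 5.17 and 5.01.

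**Figure D5:**
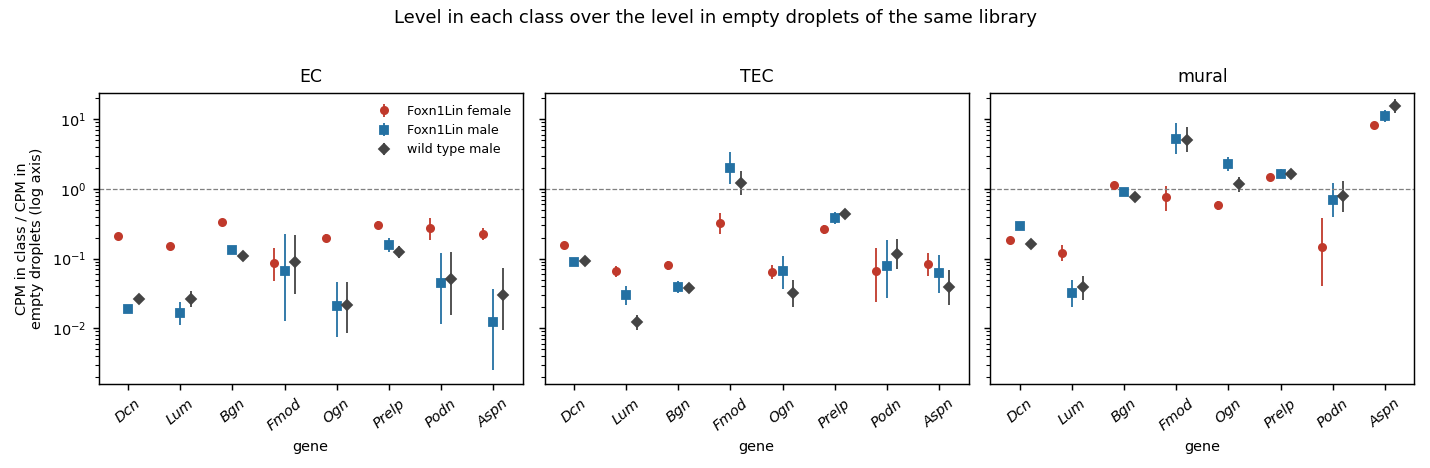
The level of each gene in EC, TEC and mural cells is divided by its level in empty droplets of the same library and plotted on a log axis, with symbols by library, bars giving 95% counting intervals and a dashed line at 1. In EC of the males the points of Bgn and Prelp lie above the other genes, though the wide intervals of Fmod and Podn overlap that of Bgn. In TEC Fmod lies highest, and in mural cells Aspn lies at 8.39, 11.2 and 15.2 while Dcn and Lum lie below 1.

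Single FB usually held several of these genes. After thinning to 2000 UMIs, 55.7%, 35.4% and 46.0% of FB had at least 4 of the 8 genes, against 39.4% and 19.4% of MEC, 1.83% to 5.10% of mural cells and at most 1.26% of EC. No more than 0.356% of FB had none. Bgn and Ogn were found together in 685, 71 and 233 thinned FB, where independence would give 743, 88.9 and 257. Within Smoc2/Dpep1 FB the same pair came to 307, 30 and 80, against 305, 29.5 and 83.3. Ogn and Podn were found together in 133, 18 and 43 FB, against 115, 13.04 and 33.6. These are descriptions of cells within libraries, with no test.

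Other SLRP genes were mostly low. Of 9 further family members, 7 could be tested in FB against EC and 5 were higher in FB, where 19.9% of all genes were, with a median log2 fold change of 1.86 beside -0.04 over all genes. Epyc (4.86, SE 0.45) and Omd (3.87, SE 0.52) led, and Tsku (1.86, SE 0.24) and Ecm2 (1.35, SE 0.23) were the smallest of those called. Omd, which lies between Aspn and Ogn, was at 9.65, 5.80 and 6.51 CPM in FB and at 2.60, 2.55 and 1.25 in mural cells. Its order of both classes was that of Ogn and not that of Aspn, at low levels that rest on few mural UMIs. Ogn itself did not pass in FB against mural cells. Ecm2, on the other side of Aspn, was at 92.8, 62.7 and 72.0 CPM in FB and at 119, 87.1 and 100.1 in mural cells. In the test of FB against mural cells, 3 of these 7 genes were higher in FB (14.1% of all genes) and 0 lower (14.3%), with Ecm2 at -0.42 (SE 0.23).

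Fibril collagens and cross-linking genes, partners of SLRPs in the matrix, were mostly higher in FB than in EC. Of 12 such genes, 11 were higher in FB (19.9% of all genes) and 0 lower (19.7%), with a median log2 fold change of 4.49. Col1a2 (6.21, SE 0.82) and Col3a1 (5.78, SE 0.74), chains of fibril collagens, were highest, and Fbn1 (3.30), a microfibril gene, and Col12a1 (2.74), a fibril-associated collagen, were lowest among those called. Against mural cells 7 of the 12 were higher in FB (14.1% of all genes) and 0 lower, and against MEC 3 were higher (11.7%) and 0 lower. In Pi16 FB against Ptn FB 6 were higher (6.12%) and 0 lower (5.28%), led by Col14a1 (5.90, SE 0.26) and Loxl1 (2.77, SE 0.24), with Col1a1 (1.07) and Col5a1 (0.79) the smallest.

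The sugar chains of SLRPs are built by several sets of enzymes. Of 21 enzymes of the linkage region and of chondroitin or dermatan chains, 20 were tested, and in FB against EC 7 were higher, where 19.9% of all genes were, and 2 lower, where 19.7% were (median 0.50). Chpf (5.11, SE 0.42), a chondroitin polymerizing factor, and Dse (4.69, SE 0.44), the epimerase that makes dermatan sulfate, were the highest. Chst11 (-1.83), a chondroitin sulfotransferase, and Csgalnact1 (-1.22), which starts chondroitin chains, were lower. Of 5 keratan chain enzymes, 0 were higher (19.9% of all genes) and 3 lower (19.7%), namely B4galt4 (-3.11), Chst2 (-1.23) and Chst1 (-0.85). In Pi16 FB against Ptn FB, 1 of 18 chondroitin or dermatan enzymes tested was higher, Ust (2.19), and 2 were lower, Csgalnact1 (-2.84) and Chpf (-1.298), where 6.12% and 5.28% of all genes were. Of 3 keratan chain enzymes tested, Chst1 (3.70) was higher.

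Of 12 growth factors, receptors and processing enzymes linked to SLRPs, 6 were higher in FB than in EC (19.9% of all genes) and 3 lower, a share near the 19.7% of all genes (median 1.03). Egfr (5.19, SE 0.55), a receptor that binds decorin, and Tgfb3 (2.82, SE 0.46) were the highest. Met (-3.28, SE 0.74), another decorin receptor, and Tgfb1 (-2.69, SE 0.14) were the lowest. In Pi16 FB against Ptn FB 11 were tested and 2 were higher (6.12% of all genes), Tlr2 (2.18) and Bmp1 (2.09), the protease that trims pro-biglycan. Bmp4 alone was called lower (5.28%), with 0 UMIs in Pi16 FB and 517 in Ptn FB.

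Likeness of profile was measured as Pearson's r of log2(CPM + 10) over 19 sums of library and class, among 15944 genes. The sums share libraries, and the values are descriptions. Dcn was most like C3 (0.977), a complement component, Abi3bp (0.962) and Podn (0.962). Podn was most like Creb3l1 (0.987), Dcn and C1ra (0.957). Lum was most like Pdgfra (0.967), the gene that defined FB here, then Abca8a (0.955) and Serpinf1 (0.953). Bgn went with Mxra8 (0.965), P3h3 (0.9598), a collagen prolyl hydroxylase, and C1s1 (0.957). Prelp went with Snhg18 (0.953), Chpf (0.950) and Pdzrn3 (0.940).

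The 3 genes with the most separate patterns had other neighbours. Ogn was most like Tmeff2 (0.936), Gabra3 (0.928) and Mfap5 (0.924), a microfibril gene that was among the FB markers checked. Aspn was most like Pde3a (0.952) and Pde1b (0.927), cyclic nucleotide phosphodiesterases, and Morrbid (0.921). Fmod was most like Sv2a (0.975), Ddo (0.958) and Rhbdl1 (0.941). Among the 8 genes themselves, r was 0.800 for the neighbours Dcn and Lum, 0.342 for Aspn and Ogn and 0.294 for Fmod and Prelp.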

How the data were processed

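Per the file headers and the submitters' processing notes, the authors made the deposited UMI counts with Cell Ranger on GRCm38. The values are whole-number counts per gene and barcode and were used as deposited, for called barcodes and for all barcodes. Reads in introns were counted, and positions are those of GENCODE vM21. The deposited library summaries were not used.

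Called barcodes that had both 1000 genes or fewer and at least 20% mitochondrial counts were removed. Scrublet (scanpy 1.11.5) scored doublets. Its automatic threshold marked 0, 15 and 1 barcodes, so they were kept, and the highest scores up to the 3.9% in the labels (336, 148 and 218 barcodes) were removed as an alternative. Empty droplets were uncalled barcodes near the mode of UMI counts of at least 20 (119 to 474, 22 to 84 and 24 to 94 UMIs).

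Counts were summed per library and class with at least 10 barcodes and fitted with edgeR 4.0.16 (TMM, filterByExpr, library as a block). The same libraries enter each class, which gives the pairing. The study tested single cells, which are not replicates. Shares were taken after seeded thinning to 2000 UMIs, which left out 3 to 32 FB and 25 to 297 EC per library. Intervals are 95% exact and cover counting error only, and a count of 0 allows 3 counts. Total counts were 53366016, 33386621 and 61258534 UMIs. Alternatives included DESeq2 1.42.0 and leaving out each library. The thinned alternative called classes and subsets again on the thinned counts, with the same UMI thresholds. It thus changed the barcodes of each class as well as their depth, which cannot be told apart. The thinned shares kept the classes called on the full counts.

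The members and gene lists were chosen with earlier results of these data known. All 8 genes are named, with the 3 genes most like each, and from each list the 2 largest and 2 smallest called changes in FB against EC and in Pi16 FB against Ptn FB.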

Additional observations from a re-analysis of the deposited data

Results flagged for a closer look

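Dcn differed in direction between Foxn1Lin female and the males in comparisons that include mural cells. The difference was not tested, since there was 1 female library. Mural cells against EC came to a log2 ratio of -0.19 in Foxn1Lin female (359 against 410 CPM). The ratio was 3.98 in Foxn1Lin male (798 against 50.5 CPM) and 2.62 in wild type male (408 against 66.4 CPM). EC were highest in Foxn1Lin female, where the mural level lay near that of wild type male. Acta2-leaning against Rgs5-leaning mural cells came to -0.62 in Foxn1Lin female (299 against 457 CPM). They came to 2.28 in Foxn1Lin male (1138 against 234 CPM) and to 1.65 in wild type male (560 against 179 CPM). The FB markers summed to 337 CPM in EC of Foxn1Lin female and to 17.3 and 33.2 in the males. In Acta2-leaning against Rgs5-leaning cells they summed to 545 against 1366 CPM in the female library, to 762 against 680 in Foxn1Lin male and to 781 against 1122 in wild type male. Inmt and Gpx3, markers of Smoc2/Dpep1 FB, came to 122 against 162, 438 against 277 and 336 against 180 CPM. The 5 markers of Pi16 FB came to 1382 against 1743, 67.7 against 33.5 and 65.2 against 41.3. Postn and Mdk, of Ptn FB, came to 57.6 against 860, 186 against 235 and 428 against 422. The part of these markers in the Dcn values was not tested. Sex and library cannot be told apart.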

How the results depend on the processing

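With no library term in place of the replicate block, the number of the 8 genes called fell from 6 to 3 for Pi16 FB against Ptn FB, from 5 to 0 for Pi16 FB against Smoc2/Dpep1 FB and from 4 to 1 for Smoc2/Dpep1 FB against Ptn FB. It was unchanged for FB against mural cells, EC, MEC and TEC, and went from 6 to 5 for mural cells against EC. Without 1 library at a time the counts ran from 5 to 8 for FB against mural cells, 7 to 8 against EC, 1 to 4 against MEC, 7 to 8 against TEC, 4 to 7 for mural cells against EC, 5 to 5 for Pi16 FB against Ptn FB, 2 to 4 for Pi16 FB against Smoc2/Dpep1 FB, 1 to 3 for Smoc2/Dpep1 FB against Ptn FB and 0 to 3 for Acta2-leaning against Rgs5-leaning cells. The lone library of a class is then assumed to vary like the others. The last comparison also gave 1 gene with DESeq2, 2 with all genes of at least 1 UMI kept and 2 after thinning to 2000 UMIs, against 0. Smoc2/Dpep1 FB against Ptn FB gave 2 after thinning, and Pi16 FB against Smoc2/Dpep1 FB gave 1 with the Pi16 rule first.

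All log2 fold changes that turned sign had not been called, except Dcn in Pi16 FB against Ptn FB (0.0029 with the Pi16 rule first, an alternative chosen after seeing the data). With that rule, Podn in the same comparison came to 0.36, Ogn in Pi16 FB against Smoc2/Dpep1 FB to 0.49 and Aspn in Smoc2/Dpep1 FB against Ptn FB to -0.033. Thinned, Lum in mural cells against EC came to -0.52, Ogn in Pi16 FB against Smoc2/Dpep1 FB to 0.093, Aspn in Smoc2/Dpep1 FB against Ptn FB to -0.73, and Fmod and Aspn in Acta2-leaning against Rgs5-leaning cells to -0.028 and 0.053. With no library term, Lum in mural cells against EC came to -0.14. Without 1 library at a time, Podn in FB against MEC ran from -0.10 to 0.21, Lum in mural cells against EC from -0.0076 to 0.63, Lum and Aspn in Smoc2/Dpep1 FB against Ptn FB from -0.15 to 0.0061 and from -0.023 to 0.17, and Lum, Bgn and Fmod in Acta2-leaning against Rgs5-leaning cells from -0.92 to 0.046, -0.37 to 0.028 and -0.027 to 0.45. The cause was not tested.

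Counts over all genes moved by more than 1.5 times in some settings. Acta2-leaning against Rgs5-leaning cells had 53 genes, against 257 with DESeq2, 855 with all genes kept, 726 thinned, 14 with no library term and 0 to 1025 without 1 library. Thinning left 11522 genes to test in place of 17595, and gave 4201 called genes for FB against EC (6966 in full), 1966 against MEC (3786), 4617 against TEC (9675) and 4057 for mural cells against EC (6551). For the subsets it left 4124 genes in place of 11088, and gave 725 for Pi16 FB against Ptn FB (1265 in full), 265 for Pi16 FB against Smoc2/Dpep1 FB (519) and 536 for Smoc2/Dpep1 FB against Ptn FB (1395), which were 17.6%, 6.43% and 12.997% of the genes tested. For the mural split it left 5478 in place of 9383. No library term gave 3270 against 4989 for FB against mural cells, and 803, 197 and 464 for the subsets. The Pi16 rule first gave 2856 for Pi16 FB against Ptn FB. Without 1 library the lowest were 2342 for FB against mural cells, 4353 against EC, 1400 against MEC, 3699 for mural cells against EC, and 807, 317 and 889 for the subsets. Keeping all genes gave 901 for Pi16 FB against Smoc2/Dpep1 FB. Of 184 CPM levels by class and library, 42 left their 95% counting interval with class thresholds raised by 1 and 17 with the highest doublet scores removed. After thinning, where classes were called again on the thinned counts, 123 did, and with no cell filter 0 did.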
